A study of Mus musculus with 24 samples.

Results

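Fibro/adipogenic progenitors (FAPs) sorted from glycerol-injured muscle of young mice were compared with FAPs from uninjured muscle of young mice, across all genes measured. The comparison takes 12 of the 24 Illumina bead arrays of the series, the 6 titled young activated and the 6 titled young quiescent, and the members were chosen by title alone. All mice were wild-type C57BL/6J males aged 2 to 4 months. Activated FAPs were taken 3 days after 50 µl of 50% glycerol had been injected into the muscle, and quiescent FAPs came from untreated muscle. Both groups drew on pooled tibialis anterior, gastrocnemius and quadriceps muscles, and RNA was extracted from the cells directly after sorting. The other 12 arrays hold activated and quiescent FAPs of mice aged 20 to 24 months. They enter the normalization, the detection filter, the choice of each gene's probe, the shared estimate of spread and the test between ages. The sources used here do not give the surface markers of the sort, any pooling of animals or any chip or scan batch. Nothing says that the arrays of a group came from separate animals, so p-values measure the spread between arrays only.

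FAPs are the stromal cells that lie between muscle fibres and carry the PDGF receptor alpha. They rest in healthy muscle, enter the cell cycle within days of an injury, feed the muscle stem cells with secreted factors and are then cleared. In glycerol injury some of them form fat cells instead, and in chronic disease they lay down scar matrix. A resting cell that re-enters the cycle has to rebuild its replication, mitosis and biosynthesis machinery, and the gene lists below follow that order before turning to matrix, signalling and immune genes.

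Values are normalized log2 intensities, on which 1 unit is a 2-fold difference. Where 3 values are given together, they are the lowest, the median and the highest of a group's 6 arrays, and a change is activated minus quiescent ± its moderated standard error from limma (n = 6 arrays per group). A gene is called at a Benjamini-Hochberg adjusted p under 0.05 over all 8148 features tested. Of 7576 named genes tested, 2559 were called (33.8%), of which 1292 were higher (17.1%) and 1267 lower (16.7%) in activated cells. A change of at least 2-fold was called for 734 genes upward and 847 downward, and one of at least 8-fold for 85 upward and 67 downward. The 6 activated and the 6 quiescent arrays did not overlap at all for 1689 genes (22.3%), 861 of them higher (11.4%) and 828 lower (10.9%). The median change over all genes was -0.01, so list medians are read against a value close to 0. Counts of called list members are likewise read against the 17.1% higher and 16.7% lower over all genes. Among the 4402 genes detected on all 12 arrays, 792 were called higher and 803 lower.

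Between 7371 and 9658 probes were detected per young array, with means of 8744 ± 553 in activated and 8649 ± 747 in quiescent arrays (SD, n = 6 each; exact two-sided permutation test, p = 0.807). The first principal component of the young arrays held 54.4% of the variance and separated the groups. Young quiescent array 6 stood apart on the second component (8.38% of the variance), had the fewest detected probes and had the lowest median correlation with its own group, 0.929. Without it, 2404 genes were called, 1194 higher and 1210 lower, and 2287 of the 2559 calls were kept. The array names carry a letter that is the same throughout a group, so its effect and that of activation cannot be told apart.

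The FAP label was checked against marker genes. Pdgfra was detected on all 12 arrays, at 10.95, 11.84 and 11.90 in activated and 12.56, 12.73 and 12.87 in quiescent cells, as were Dcn, Pi16, Col1a2 and Col3a1. Ly6a, which encodes Sca-1, and Smoc2 were not named on the array, and the Col1a1 probe was detected on 0 of 6 activated and 1 of 6 quiescent arrays. The muscle stem cell genes Pax7, Myf5, Myod1 and Itga7 were detected on 0 arrays of either group. From the same list, Myog was detected on 1 activated and 0 quiescent arrays, and Ncam1 on 0 activated and 1 quiescent. Of the 3 genes of that list tested, Chrna1, detected on 5 activated and 0 quiescent arrays, and Vcam1, detected on all 12, were called higher. Megf10, detected on 2 activated and 5 quiescent arrays, was not called. Of 18 FAP and fibroblast markers tested, 13 were called lower in activated cells and 0 higher, and their mean signal lay at 8.05, 8.36 and 8.53 in activated and at 9.52, 9.84 and 9.95 in quiescent cells. Of 16 macrophage and monocyte markers tested, 15 were called higher in activated cells, and their mean signal lay at 8.22, 9.18 and 10.59 in activated and at 6.33, 6.66 and 7.06 in quiescent cells. The leukocyte genes Ptprc and Itgam were each detected on 1 activated and 0 quiescent arrays, and Ccr2 on none. Of 12 endothelial markers, 11 were lower, with a mean signal of 6.24, 6.98 and 7.54 in activated and 9.15, 9.50 and 10.07 in quiescent cells. Of 9 muscle fibre genes, 7 were lower, with a mean signal of 5.92, 6.43 and 6.93 in activated and 7.50, 7.82 and 8.98 in quiescent cells. In sorted bulk samples, fewer cells of a type and less RNA per cell cannot be told apart, and the part of other cell types in the results below was not tested except where a value is given.

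**Figure D1:**
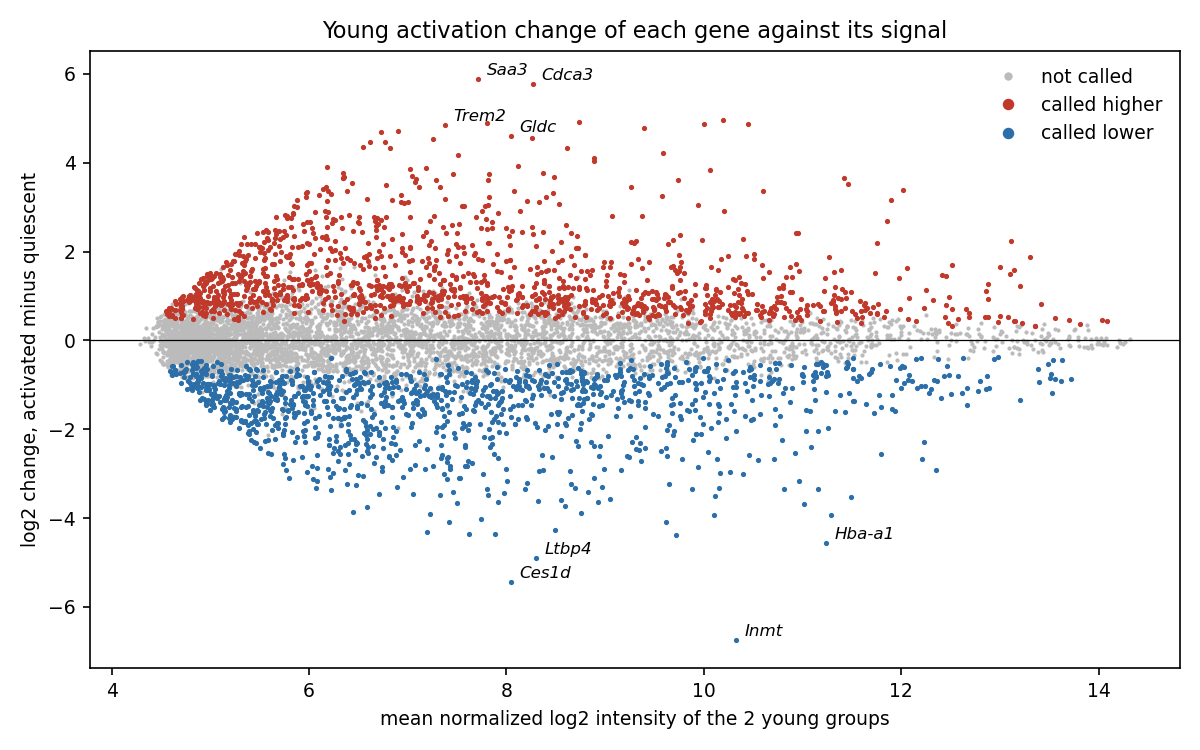
Change of each of 7576 genes (vertical axis, log2 intensity, young activated minus young quiescent) against its mean normalized log2 intensity over both young groups (horizontal axis). Red points are the 1292 genes called higher in activated cells, blue points the 1267 called lower, grey points the rest, and changes narrow towards the dim end on the left, where the floor of the scale limits them.

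The gene with the highest change was Saa3, an acute-phase serum amyloid, which lay at 10.34, 10.59 and 11.21 in activated and at 4.31, 4.80 and 5.18 in quiescent cells, a change of 5.89 ± 0.81 (adjusted p = 4.29e-06). Cdca3, which helps cells enter mitosis, lay at 10.83, 11.20 and 11.43 in activated and at 4.59, 5.29 and 6.52 in quiescent cells, a change of 5.78 ± 0.53 (adjusted p = 1.20e-08). Every activated array lay more than 4 log2 units above every quiescent array for both genes, and the other probe of Cdca3 gave a change of 2.40. The other 10 of the 12 highest changes belonged to the mitotic kinase Plk1, the centromere kinesin Kif2c, thymidine kinase Tk1, the glycine cleavage enzyme Gldc, the myeloid genes Trem2 and Lat2, and the histone genes H2ac15, H2ac11, H2ac12 and H2ac7.

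The lowest change was that of Inmt, an N-methyltransferase of small amines, at 5.67, 7.09 and 8.45 in activated and 13.49, 13.71 and 13.86 in quiescent cells, a change of -6.74 ± 0.58 (adjusted p = 4.92e-09), which is 107-fold lower. The carboxylesterase Ces1d lay at 4.18, 5.41 and 6.42 in activated and 10.53, 10.78 and 11.04 in quiescent cells and was detected on 4 of 6 activated arrays (-5.45 ± 0.47, adjusted p = 5.14e-09). For both genes the quiescent arrays were tightly grouped and the activated arrays spread over more than 2 units. Ltbp4, a TGF-beta binding protein of elastic fibres, lay at 5.22, 5.88 and 6.34 in activated and 10.61, 10.76 and 10.91 in quiescent cells (-4.90 ± 0.20, adjusted p = 1.56e-14). Timp3, an inhibitor of matrix proteases, lay at 6.90, 7.62 and 8.21 in activated and 11.46, 11.65 and 11.87 in quiescent cells (-4.10 ± 0.29, adjusted p = 2.87e-10). Others among the 12 lowest were Sult1a1, a phenol sulfotransferase, Hr, a nuclear corepressor, Rapgef3, a cAMP-activated exchange factor for Rap1, C1qtnf9 and Retnla, both secreted proteins, Tcf15, a transcription factor, and Hba-a1, a globin chain of red blood cells. Rgs4, a brake on G protein signalling, completed the 12 with a wide spread, at 4.19, 4.78 and 7.43 in activated and 7.02, 10.14 and 11.32 in quiescent cells, and is the only one of the 24 genes in which the groups overlapped.

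**Figure D2:**
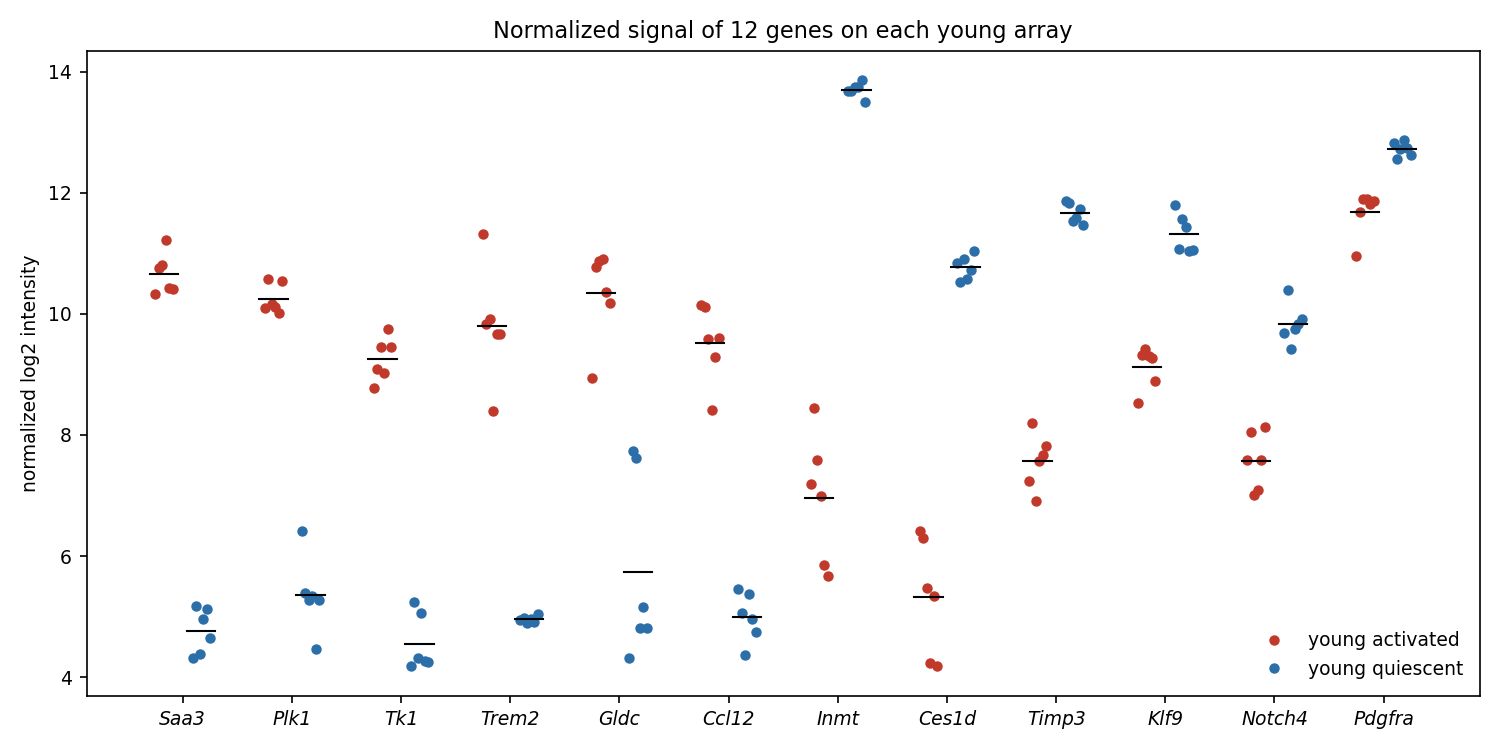
Normalized log2 intensity (vertical axis) of 12 genes on each young array, with the 6 activated arrays in red on the left of each pair and the 6 quiescent arrays in blue on the right, and a line at each group mean. Saa3 stands at 10.34 to 11.21 on activated and 4.31 to 5.18 on quiescent arrays, and Inmt at 5.67 to 8.45 on activated and 13.49 to 13.86 on quiescent arrays.

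Some genes were at the detection limit in one state. Detection on all 6 activated and 0 of 6 quiescent arrays was found for 64 genes (0.845%), and on all 6 quiescent and 0 of 6 activated arrays for 37 (0.488%). A fold against an undetected group is a lower bound, taken against the lowest detected signal of each array. Syngr1, a synaptic vesicle protein, was at least 15.6-fold higher in activated cells, with 7.45, 8.92 and 10.41 in activated and 4.20, 4.37 and 4.62 in quiescent cells. Chil3, a chitinase-like protein known from macrophages, was at least 14.3-fold higher. The cytokinesis scaffold Anln was at least 9.52-fold (its other probe gave a log2 change of 0.83), the survivin gene Birc5 at least 8.04-fold, the actin-nucleating formin Diaph3 at least 6.79-fold, the orphan receptor Gpr176 at least 6.71-fold and the centromere gene Cenpp at least 6.47-fold higher. Zc3h12d was at least 5.96-fold higher but ranged widely in activated cells, at 4.92, 7.44 and 9.47. In the other direction, Aqp7, a channel for water and glycerol, was at least 7.40-fold lower in activated cells, with 4.21, 4.36 and 4.67 in activated and 5.93, 7.75 and 9.11 in quiescent cells. It was followed by Ssu2 (at least 4.14-fold lower), Rps6kl1 (4.03), the choline phosphodiesterase Enpp6 (3.66), Zcchc18 (3.21), the neurexin Nrxn2 (3.14), the GTPase Gimap8 (3.00) and the actin-severing protein Scin (2.96). Changes larger than these bounds cannot be read from this array, since the dim group gives no signal to compare with.

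Genes of chromosome segregation rose together. Of the kinetochore, spindle and cytokinesis list, which holds 50 genes of which 41 are named on the array, 27 were tested and 24 were called higher, against 17.1% of all genes tested, with 0 called lower and a median change of 2.11, or 1.68 with genes undetected in one group set at their lower bound. Of the mitotic cyclin and kinase list, 8 of 21 genes were tested and 7 called higher (median 2.08, or 1.64 with such genes at their bound). Many mitosis genes, among them Ccna2, Ccnb2 and Bub1, did not pass the detection filter. A gene that was dim in quiescent cells could pass only through the arrays where it was bright, so these counts describe the genes tested and support nothing further. Plk1 lay at 10.02, 10.14 and 10.58 in activated and 4.47, 5.31 and 6.42 in quiescent cells (4.89 ± 0.42, adjusted p = 5.28e-09). Cdc20, which activates the anaphase-promoting complex, lay at 8.39, 9.05 and 9.41 in activated and 4.26, 4.42 and 5.24 in quiescent cells (4.46 ± 0.32, adjusted p = 2.71e-10), and of its other probes the weakest gave 0.77 and was not called. Cenpa, the histone variant that marks centromeres, lay at 11.32, 11.74 and 11.92 in activated and 6.26, 7.51 and 8.54 in quiescent cells (4.22 ± 0.48, adjusted p = 3.37e-07). The groups were separate for all of these genes, and for Plk1 and Cenpa the activated arrays lay closer together than the quiescent ones. Kif2c (4.69 ± 0.33) and the kinase Pbk (2.90 ± 0.32) were higher as well. The kinases Aurka and Cdk1, which act at the spindle poles and at entry into mitosis, were detected on 6 activated and 0 quiescent arrays and were at least 4.99-fold and at least 4.12-fold higher. Of the ring complexes that hold and compact sister chromatids, 5 of 10 tested genes were called higher and none lower. These were the condensin subunits Ncaph (1.88 ± 0.31), Ncapd2 (1.43 ± 0.24), Ncapd3 and Ncapg2 and the cohesin regulator Cdca5. The core cohesin genes Smc1a, Smc3, Stag1 and Stag2 had changes between -0.45 and 0.11 and were not called. The call of Ncapd3 (adjusted p = 0.0473) was lost in 15 of 22 alternative settings.

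The promoters of the mitosis genes called higher were searched for sequence elements known for such genes. The shares describe the genes of these lists and are no support for the activation change, since uncalled mitosis genes were not compared. Cell cycle genes of the mitotic phase are known to carry the cell cycle homology region, TTTGAA, near their start, often with CCAAT boxes upstream. RefSeq promoters of 300 bases (250 before and 50 after the start, GRCm38.p6) were available for 27 of the 31 mitosis genes called higher, 30 promoters in all. TTTGAA on either strand was present in 21 of the 30 (70.0%), against 11.6% of the 7965 promoters of all genes tested and 9.50% of those of genes called lower. CCAAT was present in 76.7%, against 37.7% of those of all genes tested. Both were present in 18 of the 30 (60.0%), against 4.76% of all. The mean GC content was 58.2% in the mitosis promoters and 60.2% in all tested. The promoters of 3 genes with large changes that hold both elements are shown, with TTTGAA and CCAAT, or its reverse complement ATTGG, in capitals. They lie at chr7:122159185-122159484 on the plus strand (Plk1), chr4:118437294-118437593 on the minus strand (Cdc20) and chr5:30666636-30666935 on the plus strand (Cenpa), and each is printed 5′ to 3′ on the gene's strand.
Plk1: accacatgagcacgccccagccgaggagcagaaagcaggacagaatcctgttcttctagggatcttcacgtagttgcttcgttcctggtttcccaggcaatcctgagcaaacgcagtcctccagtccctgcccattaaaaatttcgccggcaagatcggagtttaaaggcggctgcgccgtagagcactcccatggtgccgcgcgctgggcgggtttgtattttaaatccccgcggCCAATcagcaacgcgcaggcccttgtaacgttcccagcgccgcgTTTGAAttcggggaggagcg
Cdc20: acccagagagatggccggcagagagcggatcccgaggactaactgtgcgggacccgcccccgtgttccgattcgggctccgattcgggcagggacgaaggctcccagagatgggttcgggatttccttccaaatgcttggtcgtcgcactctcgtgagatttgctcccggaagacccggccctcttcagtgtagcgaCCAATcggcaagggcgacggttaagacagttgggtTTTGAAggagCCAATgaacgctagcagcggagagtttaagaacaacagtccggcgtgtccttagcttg
Cenpa: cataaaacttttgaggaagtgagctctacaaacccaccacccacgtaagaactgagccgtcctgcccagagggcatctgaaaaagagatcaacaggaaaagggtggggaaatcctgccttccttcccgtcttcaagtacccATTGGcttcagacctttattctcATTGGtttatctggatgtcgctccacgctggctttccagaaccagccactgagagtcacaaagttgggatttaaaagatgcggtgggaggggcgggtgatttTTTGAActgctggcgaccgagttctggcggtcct
In Plk1 the CCAAT lies from -14 to -10 and the TTTGAA from 31 to 36, counted from the start. In Cdc20 the TTTGAA lies between CCAAT boxes, and in Cenpa both boxes run on the opposite strand upstream of it. A match is a description of the letters and not evidence of a bound factor.

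**Figure D3:**
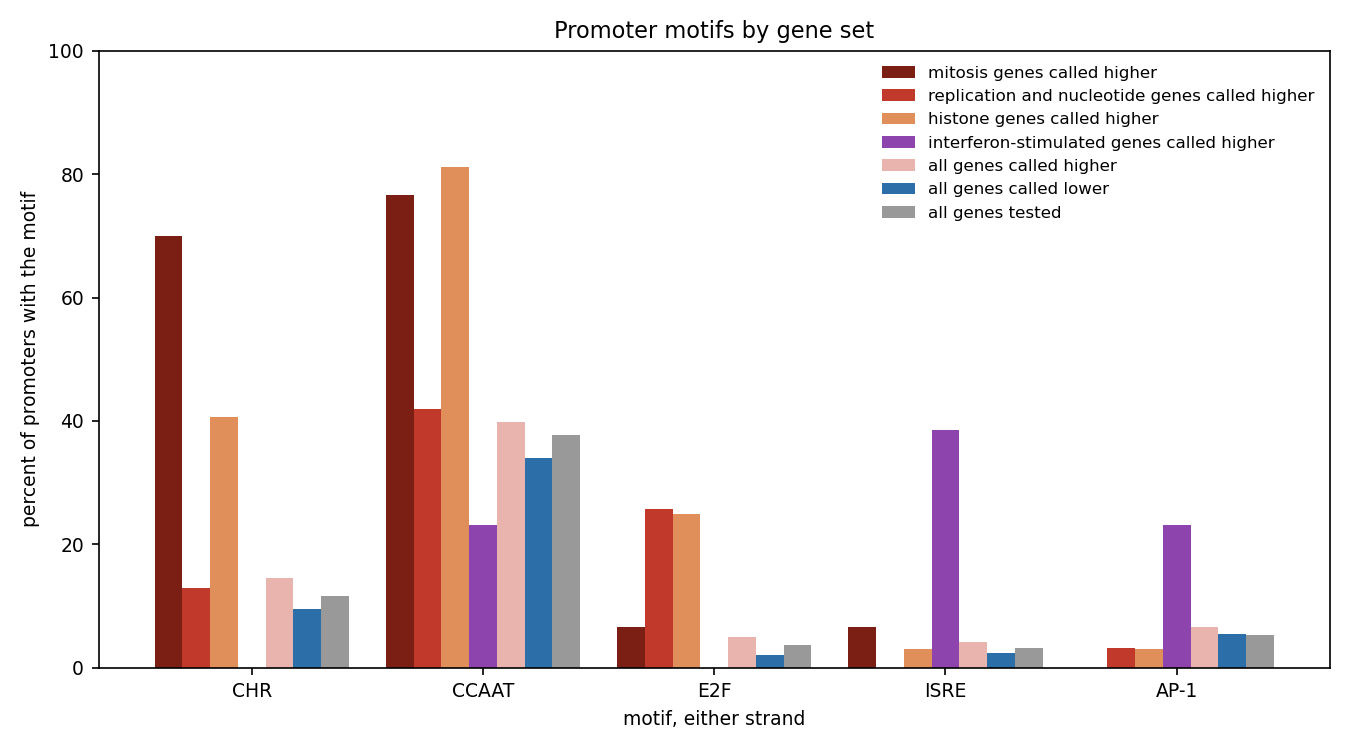
Percent of promoters (vertical axis) that hold each motif (horizontal axis), as bars for sets of genes called higher or lower in young activated cells and for all genes tested. TTTGAA stands at 70.0% in the mitosis genes called higher and at 11.6% in all genes tested, and the E2F motif at 25.8% in replication and nucleotide genes called higher and at 3.70% in all genes tested.

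DNA replication genes were higher as well. Of 34 genes of origins, helicases and polymerases tested, 20 were called higher and 0 lower (median change 0.98). Mcm10, which helps to switch on the replicative helicase, lay at 6.52, 7.91 and 8.71 in activated and 4.18, 4.27 and 5.47 in quiescent cells (3.27 ± 0.42, adjusted p = 1.53e-06). The helicase subunit Mcm5 lay at 9.35, 9.66 and 10.31 in activated and 5.99, 6.61 and 7.47 in quiescent cells (3.13 ± 0.38, adjusted p = 8.88e-07). Cdt1, the licensing factor that loads the helicase, lay at 7.56, 7.85 and 7.93 in activated and 4.31, 4.98 and 5.60 in quiescent cells (2.81 ± 0.24, adjusted p = 5.28e-09). No activated array fell into the quiescent range for these genes. The sliding clamp Pcna and the origin recognition genes Orc3 (-1.34), Orc4, Orc5 and Orc6 were not called. In nucleotide synthesis, 9 of 19 genes were called higher, led by Tk1 (4.71 ± 0.34, and 1.70 by its other probe), the ribonucleotide reductase subunit Rrm2 (at least 5.65-fold higher, detected on 6 activated and 0 quiescent arrays) and thymidylate synthase Tyms (2.71 ± 0.45). The one gene of this list called lower was Rrm2b, the p53-inducible small subunit of ribonucleotide reductase used outside S phase, at 4.39, 5.38 and 5.74 in activated and 5.71, 6.85 and 7.69 in quiescent cells (-1.60 ± 0.31, adjusted p = 0.00027). So the small subunits Rrm2 and Rrm2b changed in opposite directions. An E2F motif, TTTNNCGC with each N a C or G, was present in 8 of 31 promoters of the replication and nucleotide genes called higher (25.8%), those of Cdt1, Clspn, Lig1, Mcm5, Mcm6, Mcm7, Pold1 and Ppat, against 3.70% of promoters of all genes tested. TTTGAA was present in 12.9% of these promoters, close to the 11.6% of all.

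Replication-dependent histone genes, whose transcripts are made in S phase and mostly lack a poly(A) tail, were higher in 33 of 44 genes tested and lower in 0 (median 1.67). H2ac15 lay at 11.74, 12.82 and 13.03 in activated and 7.18, 7.75 and 8.11 in quiescent cells (4.96 ± 0.46, adjusted p = 1.85e-08). H2ac24, one of the genes with the smallest spread among activated arrays, lay at 14.15 to 14.33 in activated and 11.62 to 12.26 in quiescent cells (2.24 ± 0.30). Histone genes of a cluster are near-identical copies, so a probe may report several of them and the number of genes that changed is uncertain. In the 32 promoters of histone genes called higher, TTTGAA was present in 40.6%, CCAAT in 81.2% and the E2F motif in 25%. The shares over all genes tested were 11.6%, 37.7% and 3.70%. The mean GC content of these histone promoters was 45.7%, against 60.2% in all tested. Among chromatin enzymes, 6 of 11 tested were called higher and 0 lower. They were Uhrf1, Hmgb2, the chromatin assembly subunits Chaf1a and Chaf1b, Hmgn2 and the maintenance DNA methyltransferase Dnmt1.

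Regulators of the cycle were fewer. Of 17 G1/S cyclins, cyclin-dependent kinases and E2F-family genes tested, 4 were called higher and 1 lower, against 17.1% and 16.7% of all genes. Mybl2, the B-Myb factor that works with the MuvB complex on mitotic genes, lay at 6.37, 8.42 and 9.38 in activated and 4.27, 4.33 and 5.40 in quiescent cells (3.66 ± 0.55, adjusted p = 1.49e-05). E2f1, an activator of S-phase genes, lay at 8.47, 8.93 and 9.34 in activated and 4.64, 6.99 and 7.98 in quiescent cells (2.20 ± 0.41, adjusted p = 0.000178). Foxm1, a factor of late cycle genes, lay at 4.56, 5.79 and 6.54 in activated and 4.44, 4.52 and 5.22 in quiescent cells, with overlap (1.05 ± 0.28, adjusted p = 0.00471), and E2f3 was the remaining gene called higher. Ccnd2, a D-type cyclin, was called lower (-1.32 ± 0.42, adjusted p = 0.0168), while Ccnd1 (0.45), Ccnd3 (0.03) and Cdk2 (0.56) were not called, and Myc did not pass the detection filter. Of 17 inhibitors of cyclin-dependent kinases and p53 targets, none was called higher and 4 lower. Cdkn1c, the p57 inhibitor, lay at 9.16, 9.39 and 9.93 in activated and 12.56, 12.80 and 13.07 in quiescent cells (-3.36 ± 0.24, adjusted p = 2.92e-10), which is 10.2-fold lower. Txnip, which binds thioredoxin and restrains glucose uptake, lay at 6.94, 7.53 and 8.26 in activated and 9.63, 9.85 and 10.24 in quiescent cells (-2.38 ± 0.28, adjusted p = 3.77e-07). The stress genes Gadd45a (-1.45 ± 0.48, adjusted p = 0.0225) and Gadd45g were also lower. Cdkn1a, the p21 gene, changed by -0.09 and was not called, and Cdkn1b, the p27 gene, by -1.60 without being called. Of 13 genes of homologous recombination and Fanconi repair, 5 were called higher (Rad54l, Blm, Rad54b, Brip1 and Ube2t) and 1 lower (Fancc).

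**Figure D4:**
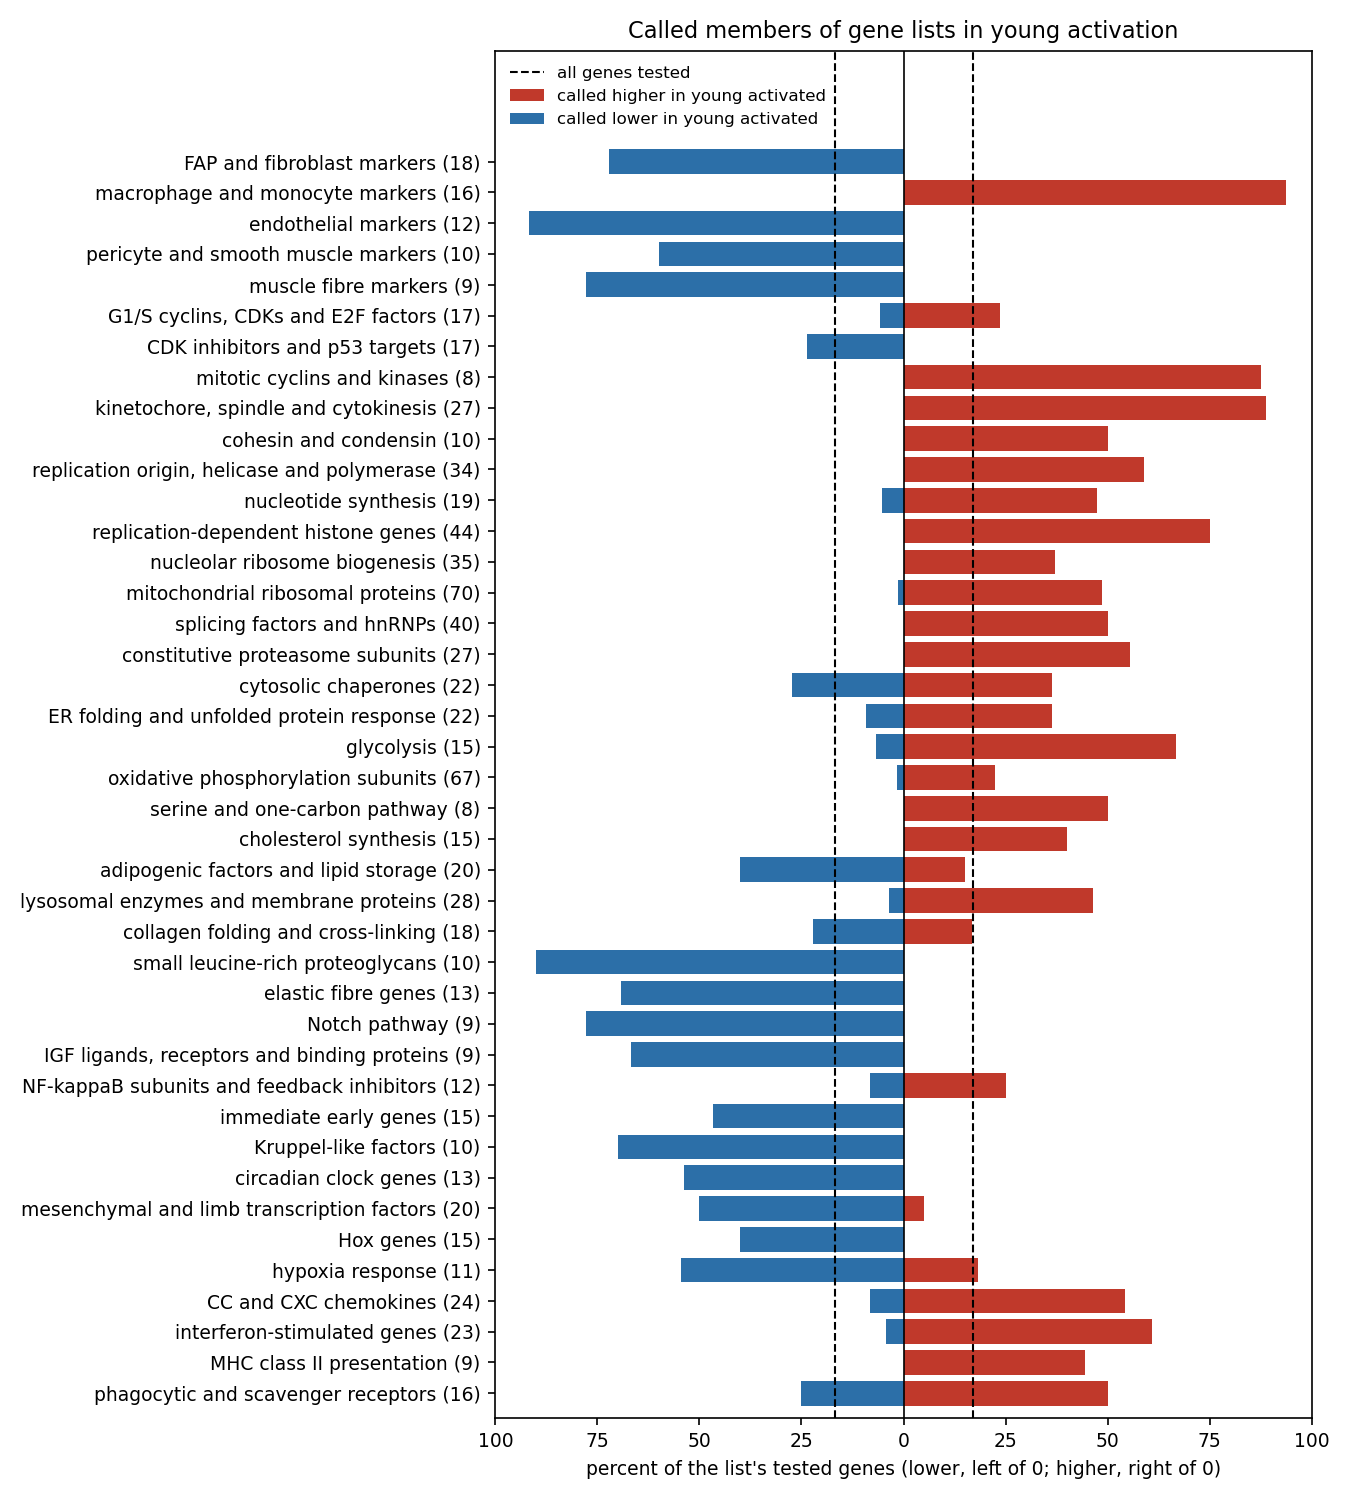
Percent of each list's tested genes called higher (red bars, right of 0) or lower (blue bars, left of 0) in young activated cells, with the number tested in brackets after the list's name. Dashed lines mark the shares over all genes tested, 17.1% higher and 16.7% lower.

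In most lists of RNA and protein production a part of the genes was called higher, by smaller amounts. In nucleolar ribosome biogenesis, 13 of 35 genes were called higher and 0 lower (median 0.44). Nhp2, a protein of box H/ACA particles and telomerase, lay at 9.50, 9.70 and 10.07 in activated and 7.46, 7.80 and 8.29 in quiescent cells (1.92 ± 0.21, adjusted p = 1.72e-07), and its other probe gave 0.74 and was not called. Splicing factors were higher in 20 of 40 genes and lower in 0 (median 0.51), led by the U2 particle protein Snrpa1 at 8.04, 8.47 and 8.61 in activated and 5.96, 6.37 and 6.77 in quiescent cells (1.95 ± 0.20, adjusted p = 8.58e-08). Mitochondrial ribosomal proteins were higher in 34 of 70 genes (median 0.50), with Mrpl1 (1.17 ± 0.28) and Mrps15 (1.19 ± 0.30) among the largest changes, and only Mrpl49 was called lower, a call lost in 11 of 23 alternative settings. Cytosolic ribosomal proteins, in contrast, had a median change of 0.00, with 10 of 54 higher and Rpl22 lower, and the share called higher is close to the 17.1% over all genes. Their mean signal lay at 11.96, 12.01 and 12.10 in activated and 11.90, 11.92 and 11.95 in quiescent cells.

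Constitutive proteasome subunits were higher in 15 of 27 genes and lower in none (median 0.52). Psmd14, the deubiquitinase of the lid, lay at 8.04, 8.39 and 8.55 in activated and 6.24, 7.16 and 7.41 in quiescent cells (1.32 ± 0.28, adjusted p = 0.000633). The mean proteasome signal was even across arrays, at 10.49, 10.50 and 10.56 in activated and 9.97, 10.01 and 10.07 in quiescent cells. When each array was scaled on its median in place of quantile normalization, 8 subunits were called. In the list of cytosolic chaperones, 8 of 22 genes were called higher and 6 lower, against 17.1% and 16.7% of all genes tested. This list also holds the mitochondrial chaperonin genes Hspe1 and Hspd1, both among the 8. Those that were higher included subunits of the chaperonin that folds actin and tubulin, Tcp1 (1.28 ± 0.28) and Cct3 (0.95 ± 0.20), each with another probe that was not called, and the mitochondrial chaperonin Hspe1 (1.25 ± 0.30). Those that were lower were Hspa1a, Hspb1, Hsph1, Cryab, Dnajb1 and Bag3. Hspa1a lay at 7.25, 8.0 and 9.11 in activated and 10.46, 10.48 and 10.97 in quiescent cells (-2.46 ± 0.40, adjusted p = 3.17e-05). In the endoplasmic reticulum, 8 of 22 genes were called higher and 2 lower, and 2 were called higher after median scaling. The translocon subunit Sec61b lay at 8.62, 9.05 and 9.29 in activated and 7.75, 7.84 and 8.17 in quiescent cells (1.09 ± 0.22). The stress-response genes Herpud1 (-1.33 ± 0.18, adjusted p = 4.27e-06) and Ddit3 were lower, and the chaperone Hspa5, or BiP, was not called (0.53 ± 0.28, adjusted p = 0.149).

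Metabolic genes moved unevenly. Among the 12 highest changes was Gldc, which splits glycine to feed one-carbon units, at 8.95, 10.57 and 10.91 in activated and 4.32, 4.99 and 7.73 in quiescent cells (4.60 ± 0.53, adjusted p = 3.81e-07). The lowest activated value came from array 1, while the other 5 lay at 10.18 to 10.91. The other probe of Gldc gave a change of 1.02, also called. Of 8 serine and one-carbon genes tested, 4 were called higher and none lower, the others being the mitochondrial formyltetrahydrofolate dehydrogenase Aldh1l2 (2.55 ± 0.42), the serine synthesis enzyme Psat1 (1.37 ± 0.34) and Mthfd2. In glycolysis 10 of 15 genes were called higher, and 6 after median scaling. Pkm lay at 10.56, 10.94 and 11.16 in activated and 8.83, 9.22 and 9.67 in quiescent cells (1.66 ± 0.22, adjusted p = 2.63e-06). The hexokinase Hk3, an isoform of myeloid cells, was higher (2.89 ± 0.44). The muscle isoform Pgam2 was the one glycolytic gene called lower, at 4.67, 6.64 and 6.85 in activated and 7.75, 8.36 and 10.73 in quiescent cells (-2.57 ± 0.52). The enolase isoform of muscle, Eno3, went the other way, at 6.23, 6.77 and 7.89 in activated and 4.22, 5.27 and 6.05 in quiescent cells (1.75 ± 0.45, adjusted p = 0.00366). Macrophage markers were higher and muscle fibre markers lower in the same arrays, and their part in the changes of Hk3, Pgam2 and Eno3 was not tested. Subunits of oxidative phosphorylation were called higher in 15 of 67 (median 0.28) and lower in 1, Ndufa6, against 17.1% and 16.7% of all genes. The count of genes called higher depended on the setting, with 9 after median scaling, 23 on the authors' deposited log2 values and 27 with array weights.

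Sterol synthesis genes were higher in 6 of 15 and lower in none, against 17.1% and 16.7% of all genes tested. Farnesyl diphosphate synthase Fdps lay at 10.28, 11.63 and 11.79 in activated and 9.15, 9.52 and 10.20 in quiescent cells (1.83 ± 0.27, adjusted p = 1.02e-05), followed by Lss (1.74 ± 0.40) and Mvd (1.73 ± 0.39). With array weights 10 were called. In the adipogenic and lipid storage list 8 of 20 genes were lower and 3 higher, and the share called higher is near that of all genes. The lipid droplet protein Plin4 lay at 4.41, 4.58 and 5.04 in activated and 6.59, 7.34 and 8.84 in quiescent cells (-2.88 ± 0.49, adjusted p = 5.63e-05), and the lipocalin Apod (-2.65 ± 0.48) and the factor Ebf2 (-1.74 ± 0.31) were also lower. The genes called higher were the fatty acid binding protein Fabp5 (2.56 ± 0.68, adjusted p = 0.00475), Apoe and Plin2, all of which macrophages also express. Pparg, the master factor of fat cell formation, lay at 4.58, 5.57 and 6.16 in activated and 4.44, 4.64 and 5.37 in quiescent cells and was not called (0.67 ± 0.29, adjusted p = 0.0743), although it was called in 2 of 22 alternative settings. Adipoq (0.23) was not called, and Fabp4, Cebpa and Plin1 did not pass the detection filter. Lysosomal genes were higher in 13 of 28 and lower in 1, Lamp2, whose probes disagreed. The cathepsin Ctsc lay at 9.99, 10.32 and 11.24 in activated and 7.52, 8.21 and 8.65 in quiescent cells (2.20 ± 0.36, adjusted p = 3.97e-05). Activated array 1, which had the highest macrophage marker signal (10.59), also had the highest mean lysosomal signal, 10.33 against 9.25 to 9.62 on the other 5 activated arrays.

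Matrix genes were lower in several classes. Small leucine-rich proteoglycans, which bind collagen and regulate its fibres, were lower in 9 of 10 genes tested (16.7% of all genes) with none higher, and Bgn (-0.19) was the gene not called. Podn lay at 4.42, 4.78 and 5.63 in activated and 7.37, 7.67 and 7.98 in quiescent cells (-2.72 ± 0.28, adjusted p = 6.25e-08). Lum (-2.38 ± 0.31) and the brightest probe of Ogn (-1.96 ± 0.33) were lower in all 6 activated arrays than in any quiescent array. The other Ogn probes gave -0.54 and -1.08, also called. Elastic fibre genes were lower in 9 of 13 and higher in none (median -1.09). Elastin itself, Eln, lay at 5.62, 6.09 and 6.22 in activated and 7.88, 8.19 and 8.63 in quiescent cells (-2.27 ± 0.23, adjusted p = 5.44e-08), and Ltbp1 (-2.18 ± 0.27) and Ltbp4 were lower with it. Fibrillar and associated collagens were lower in 3 of 9, Col6a1, Col6a2 and Col18a1, while Col1a2 (-0.32) and Col3a1 (-0.86) were not called. Of the enzymes that fold and cross-link collagen, 3 of 18 were called higher and 4 lower, shares near the 17.1% and 16.7% over all genes. Lox, which cross-links collagen and elastin, lay at 8.47, 9.59 and 9.98 in activated and 6.31, 7.10 and 7.59 in quiescent cells (2.40 ± 0.33, adjusted p = 3.45e-06). The procollagen C-proteinase enhancer Pcolce2 lay at 7.79, 8.17 and 9.06 in activated and 10.38, 10.95 and 11.59 in quiescent cells (-2.59 ± 0.30, adjusted p = 3.81e-07), and the proline hydroxylase P4ha1 and the proteinase Bmp1 were also lower. Lox and Eln, whose product Lox cross-links, thus changed in opposite directions. The matricellular Wnt target Ccn4, also known as Wisp1, was higher, at 8.92, 9.45 and 9.93 in activated and 5.00, 6.31 and 7.43 in quiescent cells (3.23 ± 0.49, adjusted p = 1.51e-05).

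Signalling genes were lower in several pathways, to be read against 16.7% lower and 17.1% higher over all genes tested. Of 9 Notch pathway genes tested, 7 were called lower and none higher (median -1.53). The target Nrarp lay at 4.24, 4.63 and 4.96 in activated and 5.96, 7.55 and 8.76 in quiescent cells (-2.84 ± 0.46, adjusted p = 3.98e-05). Hey1, another target, was lower although the groups overlapped (-2.49 ± 0.48). The receptor Notch4 lay at 7.01, 7.58 and 8.14 in activated and 9.42, 9.79 and 10.39 in quiescent cells (-2.26 ± 0.30). Notch4 is known from endothelium, endothelial markers were lower in the same arrays, with the ranges given above, and their part in the Notch changes was not tested. Of 9 genes of the insulin-like growth factor system, 6 were lower. Igfbp6 lay at 8.31, 9.20 and 9.70 in activated and 12.14, 12.43 and 12.96 in quiescent cells (-3.35 ± 0.27, adjusted p = 1.92e-09). Igf2 (-2.89 ± 0.31) and Igfbp5 (-2.15 ± 0.18) were lower too, while the ligand Igf1 changed by -0.33 and was not called.

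Several families of transcription factors had members called lower and few or none called higher, against 16.7% and 17.1% of all genes tested. Of 10 Kruppel-like factors tested, 7 were lower and none higher. Klf9 lay at 8.52, 9.29 and 9.42 in activated and 11.03, 11.25 and 11.80 in quiescent cells (-2.20 ± 0.33, adjusted p = 1.48e-05), and Klf13 (-1.92 ± 0.32) and Klf2 (-1.86 ± 0.28) moved with it. Of 15 immediate early genes, which are induced within minutes of a stimulus, 7 were lower and none higher, and 11 with array weights. Ier2 was the lowest (-2.34 ± 0.40), and Jun, Fos and Egr1 were also called lower. Circadian clock genes were lower in 7 of 13, among them Per2, at 4.45, 5.12 and 6.28 in activated and 7.25, 7.61 and 8.29 in quiescent cells (-2.47 ± 0.35, adjusted p = 6.42e-06), and Rora (-2.20 ± 0.34). Without quiescent array 4 the count was 4. Of 15 Hox genes tested, 6 were lower and none higher, with Hoxb5 at 4.21, 4.36 and 5.07 in activated and 6.26, 7.97 and 8.46 in quiescent cells (-3.13 ± 0.51, adjusted p = 3.70e-05). Hoxa7 had one of the widest spreads among activated arrays, at 5.52, 8.34 and 9.23 (-2.72 ± 0.44). Of 20 mesenchymal and limb factors, 10 were lower, including Tcf4 (-1.60 ± 0.21), Zeb1 (-1.59 ± 0.31) and Osr1 (-1.43 ± 0.32), and the count was 5 without activated array 1, 6 without quiescent array 1, 5 without quiescent array 5 and 5 without the detection filter. Runx1 was the one gene of this list called higher, at 4.62, 5.11 and 5.61 in activated and 4.23, 4.28 and 4.33 in quiescent cells (at least 1.20-fold, adjusted p = 0.00123), with detection on 5 activated and 0 quiescent arrays. Among 11 genes of the hypoxia response, 6 were lower and 2 higher, the latter a share near that of all genes. The lowest were P4ha1 (-1.64 ± 0.40), Ndrg1 (-1.61 ± 0.27) and Vegfa (-1.08 ± 0.30). Another Vegfa probe gave -0.80 and was not called. The genes called higher were Mif (1.65 ± 0.15) and Egln3. The lower count was 3 without activated array 6 and 3 without quiescent array 4.

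Inflammatory genes were higher in part, to be read against 17.1% higher and 16.7% lower over all genes tested. Of 24 chemokines, 13 were called higher and 2 lower. Ccl12 lay at 8.41, 9.59 and 10.15 in activated and 4.37, 5.01 and 5.46 in quiescent cells (4.53 ± 0.46, adjusted p = 6.00e-08), and Ccl2 (3.46 ± 0.29) and Cxcl2 (3.23 ± 0.49) rose with it. The eosinophil attractant Ccl11 was lower, at 8.80, 9.33 and 9.60 in activated and 10.59, 11.11 and 11.51 in quiescent cells (-1.84 ± 0.23, adjusted p = 1.41e-06), as was Cxcl13. Il6 (0.28 ± 0.37, adjusted p = 0.600) and Il33 (0.42 ± 0.24, adjusted p = 0.192) were not called. In the NF-kappaB list 3 of 12 genes were higher, Nfkbie (1.14 ± 0.29), Nfkb2 (0.96 ± 0.25) and Relb, against 17.1% of all genes. The count was 5 with array weights and 0 over probes detected on all 24 arrays, and Relb lost its call in 9 of 22 alternative settings. The activating subunit Rela was lower by a small amount (-0.51 ± 0.16, adjusted p = 0.0174).

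Interferon-stimulated genes were higher in 14 of 23 and lower in 1, Irf1 (-1.23 ± 0.18), against 17.1% and 16.7% of all genes tested. Isg15, a ubiquitin-like protein, lay at 11.58, 12.19 and 12.56 in activated and 9.15, 9.83 and 10.13 in quiescent cells (2.42 ± 0.39, adjusted p = 2.91e-05). Oasl2 (2.56 ± 0.32) and Dhx58 (2.33 ± 0.41) were the other large changes. An interferon response element, a pair of GAAA repeats 2 bases apart on either strand, was present in 5 of 13 promoters of these genes (38.5%), those of Bst2, Gbp3, Ifit3, Isg15 and Rsad2, against 3.15% of promoters of all genes tested, and TTTGAA was present in none. Both promoters below are shown for that element, with its letters in capitals, and run 5′ to 3′ on the gene's strand. They lie at chr4:156200769-156201068 on the minus strand (Isg15) and chr19:34583279-34583578 on the plus strand (Ifit3) of GRCm38.p6.
Isg15: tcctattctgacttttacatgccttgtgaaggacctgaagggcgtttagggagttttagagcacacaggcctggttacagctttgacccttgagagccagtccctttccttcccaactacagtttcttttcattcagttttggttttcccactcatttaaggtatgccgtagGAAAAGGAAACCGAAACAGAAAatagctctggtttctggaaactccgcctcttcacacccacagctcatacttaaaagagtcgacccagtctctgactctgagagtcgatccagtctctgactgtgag
Ifit3: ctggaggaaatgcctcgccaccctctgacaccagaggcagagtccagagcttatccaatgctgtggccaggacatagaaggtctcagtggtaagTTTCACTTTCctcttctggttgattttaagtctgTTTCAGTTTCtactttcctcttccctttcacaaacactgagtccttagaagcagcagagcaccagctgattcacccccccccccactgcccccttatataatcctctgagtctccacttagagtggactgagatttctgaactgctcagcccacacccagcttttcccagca
In Isg15 the repeats run on without a break from -78 to -57, counted from the start, and in Ifit3 they lie in separate places, at -156 to -147 and -122 to -113. Such a match is likewise a description of the letters only.

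Genes of antigen presentation and uptake were higher in part, to be read against 17.1% higher and 16.7% lower over all genes tested. Of 9 class II presentation genes 4 were called higher, Ctss (3.64 ± 0.75), Cd86 (1.91 ± 0.63), H2-DMb1 and H2-DMa, and the class II chains H2-Aa, H2-Ab1 and H2-Eb1 and the invariant chain Cd74 were not called. The count was 2 after median scaling and 2 without the detection filter. Another probe of Cd86 gave 0.51 and was not called, and the calls of Cd86 and H2-DMb1 were lost in 4 of 22 and 6 of 23 alternative settings. Ctss varied widely among activated arrays, at 7.04, 8.68 and 11.17 in activated and 4.83, 5.23 and 5.71 in quiescent cells. Of 16 phagocytic and scavenger receptors, 8 were higher and 4 lower. Trem2, a lipid receptor of macrophages, lay at 8.40, 9.75 and 11.33 in activated and 4.90, 4.95 and 5.05 in quiescent cells (4.84 ± 0.67, adjusted p = 4.12e-06). The Fc receptor genes Fcgr4 (4.34 ± 0.82) and Fcgr1 (3.37 ± 0.46) were also higher. Those lower were the bridging proteins Mfge8, at 12.68, 12.96 and 13.06 in activated and 14.05, 14.10 and 14.21 in quiescent cells (-1.19 ± 0.13, adjusted p = 1.34e-07), and Pros1, and the receptors Axl and Lrp1. The list's median of 0.52 turned to -0.01 with no detection filter and to -0.76 over probes detected on all 24 arrays.

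The activated arrays also differed among themselves. Activated array 1 had the highest mean signal of macrophage markers (10.59, against 8.22 to 9.33 on the other 5), of class II genes (9.62, against 7.35 to 8.37) and of phagocytic receptors (9.03, against 7.84 to 8.35). It had the lowest mean signal of FAP markers (8.05, against 8.26 to 8.53), of collagen folding genes (7.41, against 7.89 to 8.40) and of sterol synthesis genes (6.87, against 7.38 to 7.73). Activated array 4 had the lowest macrophage signal, 8.22, which still lay above the highest quiescent value, 7.06. The mean signal of the kinetochore list ranged only over 7.19 to 7.53 on the 6 activated arrays, and over 4.96 to 5.18 on the 6 quiescent arrays. Among called genes that changed at least 2-fold and were detected on all 12 arrays, the widest spread in activated cells belonged to Edn1, the endothelin gene, with 5.62, 8.73 and 9.55 in activated and 10.76, 11.62 and 12.09 in quiescent cells (-3.35 ± 0.61). Hoxa7, Tmem88, Tbx3, Rbm48 and D16Ertd472e came next. The smallest spread belonged to Nme1, a nucleoside diphosphate kinase, with 13.74, 13.79 and 13.90 in activated and 12.29, 12.63 and 12.68 in quiescent cells (1.23 ± 0.16), and then to H2ac24, Ap2s1, Snrnp25, Eng and Lgals3bp.

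The same contrast in old mice was used to ask where the young change differs. The difference between the activation changes, old minus young, was called for 15 genes (0.198%), 13 positive and 2 negative, and 651 genes had an unadjusted p under 0.05. All 15 were called in young cells, and in 14 the change in old cells was smaller in size. Tcf15 changed by -1.38 in old and -4.37 in young cells, a difference of 3.00 ± 0.50. The endothelial receptor Robo4 changed by -0.66 in old and -3.60 in young cells (2.94 ± 0.52), and Gpihbp1, which carries lipoprotein lipase across capillary endothelium, by -0.73 in old and -3.49 in young cells (2.77 ± 0.48). Sult1a1 (2.84 ± 0.53), the cell surface protein Cachd1 (2.56 ± 0.42) and the endothelial adhesion molecule Icam2 (2.31 ± 0.49) followed. Over the endothelial list the median change was -0.75 in old and -2.76 in young cells, and its part in these differences was not tested. Of the negative differences, Angptl4, a secreted inhibitor of lipoprotein lipase, changed by 0.85 in old and 3.83 in young cells (-2.98 ± 0.59). In young cells it lay at 11.51, 12.05 and 12.32 in activated and 6.69, 8.36 and 9.17 in quiescent cells. Stau2, an RNA-binding protein, changed by -1.33 in old and 0.78 in young cells (-2.11 ± 0.41), and its young call was lost in 11 of 22 alternative settings. No gene of the mitosis, replication or histone lists was among the 15, and a p that misses the threshold does not show that these changes were alike. The number called ranged over 10 to 24 when single young arrays were left out, with 24 without activated array 1, and was 10 without quiescent array 6. Old arrays were not left out in turn. Old activated array 4 had 6587 detected probes and a median correlation of 0.892 with its own group. Old quiescent array 3 had 7188 and 0.895, while the lowest values of the young arrays were 7371 and 0.929.

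**Figure D5:**
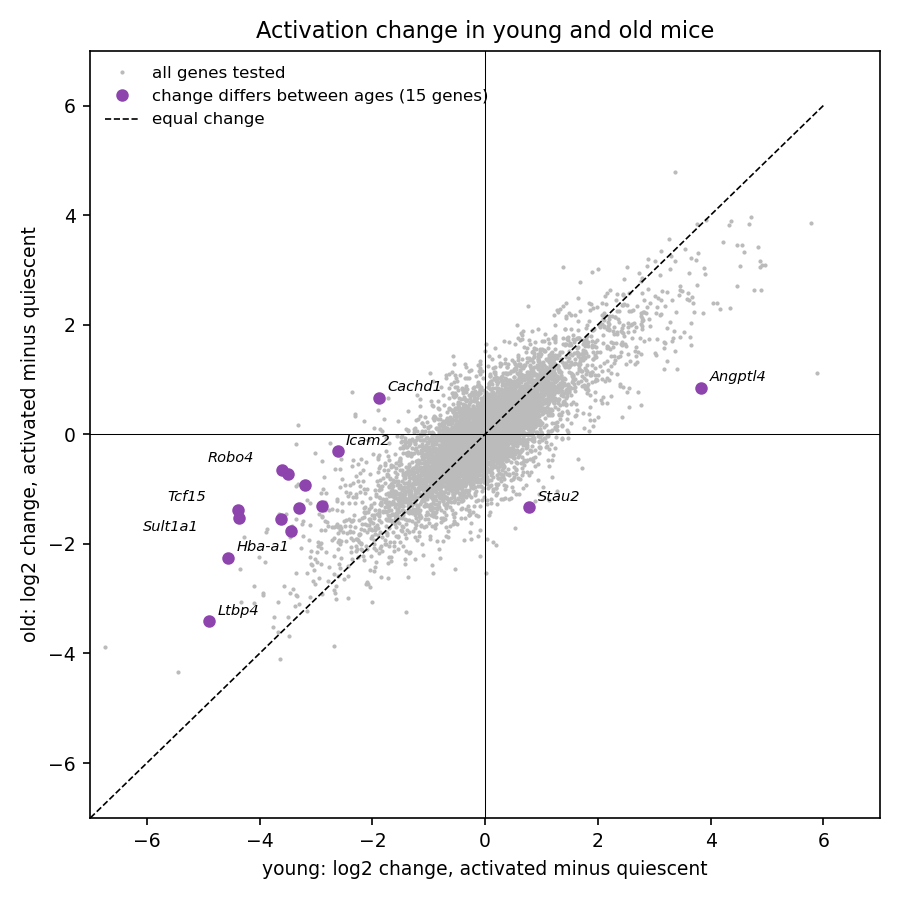
Activation change of each gene in old mice (vertical axis, log2 intensity, activated minus quiescent) against that in young mice (horizontal axis), with the 15 genes whose change differed between ages in purple, some of them labelled, and equal change as a dashed line. Angptl4 stands at 0.85 in old and 3.83 in young mice, and Tcf15 at -1.38 in old and -4.37 in young mice.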

How the data were processed

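RNA of freshly sorted FAPs was amplified, labelled with biotin and hybridised to 1-colour Illumina bead arrays, 24 in all, 6 in each of 4 groups, per the labels' protocols. The authors deposited non-normalized probe intensities with a detection p-value per probe, in steps of 1 in 798, and a table of normalized log2 values (median 6.71), with 0.0931 as the largest difference from the log2 of quantile-normalized intensities. Partek is named in the submitters' processing notes, with its version and a genome build not given in the sources used here. Array signal has no read depth, so the number of arrays limits precision.

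Background was corrected from the detection p-values with limma's nec (offset 16), followed by quantile normalization over the 24 arrays and log2. A filter required detection (p under 0.01) in 6 or more of the 24 arrays, which 10048 of 25697 probes passed. The annotation gave 1 gene symbol for 23978 of the probes, several for 0 and none for 1719. Each gene was represented by its brightest probe that passed, which left 7576 named genes and 572 unnamed features. Where 1529 genes had several such probes, probes were called in opposite directions for 5 genes and some called and some not for 342. Group means were fitted with limma's lmFit and eBayes and p-values adjusted by the Benjamini-Hochberg method over all 8148 features. The fit was tested on simulated data. The tools were R 4.3.3, limma 3.58.1, Python 3.11.15 and matplotlib 3.10.9.

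The groups, the comparison and the 63 gene lists were chosen with earlier results of these data known. Genes named were the 12 highest and 12 lowest changes, the 8 largest lower-bound folds among genes detected in all arrays of one group and none of the other, the 6 widest and 6 narrowest spreads, up to 3 called members of each of 41 lists in its main direction and 1 in the other (within a limit of 4 and 2), the 6 highest and 6 lowest called differences between ages, and a few fixed genes such as Pdgfra, Pparg and Il6. Other list members are named to account for their list and were chosen after their values were seen. Alternatives were other background, scaling, filter, probe, sample and weight choices, the replicate number as a block, and leaving out each young array. Promoter sequences are from RefSeq (GRCm38.p6), and motifs were searched on both strands.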

Additional observations from a re-analysis of the deposited data

Results flagged for a closer look

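Among 384 sets of 6 arrays (192 genes in 2 groups), 36 had 1 array standing apart from the other 5 by Dixon's criterion, which chance meets in about 1 of 20 sets. Activated array 1 and quiescent array 6 gave 7 of them each. Activated array 1 was low for Atp5g1 (11.14), Fdps (10.28), Gldc (8.95), Lss (5.23), Ltbp1 (5.58) and Pdgfra (10.95) and high for Ctsc (11.24). Its Pdgfra value lay below the 11.68 to 11.90 of the other 5 activated arrays, and its Ctsc value above their 9.99 to 10.34. Quiescent array 6 was low for Atf4 (4.44), Fabp5 (4.36), H2-DMb1 (5.38) and Klf2 (8.37) and high for Cox7b (6.94), Fcgr1 (6.31) and the muscle gene Pgam2 (10.73). In Pgam2 the other 5 quiescent arrays lay at 7.75 to 8.83.

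On the other activated arrays, array 2 was low for Lamp2 (11.45), array 3 for H2ac15 (11.74), array 4 for Laptm5 (13.53) and array 6 for D16Ertd472e (4.88), while array 5 was high for Rps6kl1 (4.74) and array 6 for Cd34 (7.35). Quiescent array 1 was high for Hspa1a (10.97), Laptm5 (13.05), Ltbp1 (9.36), Mcm10 (5.47) and Mybl2 (5.40). Quiescent array 2 was high for Gpr176 (4.64) and Icam2 (10.71) and low for Nme1 (12.29) and Pi16 (12.65). Quiescent array 3 was high for Cdc20 (5.24) and Kif2c (5.20) and low for Nr4a2 (6.50), array 4 was high for Hk3 (6.30), and array 5 was high for Cenpp (4.58) and Mrps15 (7.24) and low for Psma7 (9.38). The cell cycle genes Mcm10, Mybl2, Cdc20, Kif2c and Cenpp each had 1 quiescent array above the rest, and all of these values lay below the lowest activated array of the gene.

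The activation change differed between ages, by the test of the difference itself, for the 8 genes named for that difference. The difference, old minus young, was 3.00 for Tcf15, 2.94 for Robo4, 2.84 for Sult1a1, 2.77 for Gpihbp1, 2.56 for Cachd1, 2.31 for Icam2, -2.98 for Angptl4 and -2.11 for Stau2. By the same test it was also called for Hba-a1 and Ltbp4, named above for their young changes. Both were lowered less in old than in young cells.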

How the results depend on the processing

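No named gene changed direction under the alternatives run. The number called was 2148 with median scaling (946 higher and 1202 lower, 44.0% higher in place of 50.5%), 2289 without the detection filter, 2580 without background correction, 2583 on the authors' deposited log2 values, 2828 with the young arrays alone and 3305 with array weights. Over the 3577 genes detected on all 24 arrays it was 1502, of which 773 were higher and 729 lower, fewer genes having been tested. Leaving out each young array in turn gave 2331 to 2429 calls (1153 to 1220 higher and 1165 to 1211 lower) and 10 to 24 genes whose change differed between ages. That number was 6 with median scaling, 9 without the detection filter and 28 with array weights, and the cause was not tested. The replicate number as a block gave 2621 calls, 2493 of them shared. Arrays of the same number in the 2 groups had deviations correlated at -0.0136 to 0.067. Activated arrays 2, 5 and 6 correlated best with the quiescent array of their own number, and arrays 1, 3 and 4 with another. These values cannot settle whether the numbers pair the arrays. Of 192 named genes, 17 lost their call under some alternative, and Ncapd3 (15 of 22), D16Ertd472e (12) and Stau2 and Mrpl49 (11 each) lost it most often. Requiring detection on all 24 arrays moved 23 list counts, with fewer genes tested, and left 1 kinetochore gene, 0 mitotic kinases and 0 phagocytic receptors called higher. List medians turned sign for phagocytic receptors, 0.52 as reported (-0.76 over probes detected on all 24 arrays, -0.20 with a filter on the 12 young arrays, -0.21 with these arrays alone and -0.01 without the filter). They also did for cohesin and condensin (-0.09 over probes detected on all 24 arrays, 0.65 as reported), NF-kappaB (-0.05 and 0.40), kinase inhibitors (0.09 over those probes and 0.06 without activated array 4, -0.09 as reported) and collagen folding (0.07 without activated array 1, -0.11 as reported). Genes dim in one group are limited by the floor of the scale.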

Other observations

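The gene lists not described above gave the following counts in young activated against young quiescent cells, to be read against the 17.1% higher and 16.7% lower of all genes tested. Pericyte and smooth muscle markers were lower in 6 of 10 genes tested, with a mean signal of 6.57, 6.71 and 6.75 (lowest, median and highest array) in activated and 7.56, 7.93 and 8.69 in quiescent cells. Of the red blood cell genes 3 of 4 were lower, of Schwann cell markers 2 of 2 and of tenocyte markers 2 of 3. Satellite cell and myoblast markers were higher in 2 of 3, the acetylcholine receptor subunit Chrna1 and the adhesion molecule Vcam1. None of 6 neutrophil markers and none of 4 dendritic and mast cell markers were called by limma, and 1 of 6 lymphocyte markers, the perforin gene Prf1, was lower. The uncalled changes of the neutrophil markers ran from 0.07 to 1.42 (median 0.71), and Camp was detected on 5 activated and 1 quiescent arrays. In the IL-6 family, the cytokine Osm (3.92), which macrophages are known to make, and the kinase Jak2 were higher and the feedback inhibitor Socs3 was lower, out of 12.

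The share called higher was near that of all genes in the citric acid cycle, with 3 of 15 higher (Idh2, Mdh2 and Fh1). The same held for class I presentation and immunoproteasome genes, with 3 of 14 higher, and both lists had none lower. Antioxidant enzymes were higher in 6 of 24 and lower in 4, the latter a share near that of all genes. Of the pentose phosphate pathway 2 of 4 were higher. Iron and haem genes were higher in 6 of 15 and lower in 3. Of 14 hyaluronan and large proteoglycan genes, the hyaluronan receptor Cd44 and the syndecan Sdc3 were higher and Gpc3 and Sdc2 lower. PDGF receptors and ligands were lower in 3 of 5, Wnt genes in 4 of 16, axon guidance genes in 3 of 11 and Hedgehog genes in 1 of 2, with none higher in any of these lists.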
